A study of Homo sapiens with 3 samples.

Results

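The E-proteins TCF3, TCF4 and TCF12, the inhibitor-of-DNA-binding proteins ID1 to ID4 and the factors TWIST1 and TWIST2 are helix-loop-helix regulators of transcription, and their 9 genes are described here in the human melanoma line SK-Mel-28. The members are all probe sets of the array whose platform annotation names at least 1 of these genes, which gave 39 of 54613 non-control probe sets. Of the 39, 38 name 1 gene, and 1 names ID2 together with ID2B and is given apart. Biotin-labelled RNA was read on 3 Affymetrix U133 Plus 2.0 expression arrays, 1 sample each. The 2 siRNA arrays held RNA from cells stably transfected with the vector pSilencer 3.1-H1 neo expressing a short hairpin to MTf (melanotransferrin, a cell-surface transferrin homologue, symbol MELTF), and the labels call them B1 and B2. The 1 scrambled array held RNA from cells carrying the same vector with a scrambled hairpin. The cells behind all 3 arrays had therefore been transfected and stably carried the vector. The labels do not say whether B1 and B2 were separate clones or cultures, so the p-values measure the spread between these arrays only, which may be technical. The comparison is between cells with MELTF targeted and cells with the scrambled hairpin.

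E-proteins bind E-box DNA, either as pairs of themselves or paired with tissue-restricted helix-loop-helix factors such as TWIST1 or MYOD1. ID proteins have the dimerization region but lack the basic region that touches DNA, so that a pair of an ID protein and an E-protein cannot bind. ID genes are among the best known direct targets of bone morphogenetic protein (BMP) signalling. TWIST factors are known from the neural crest, from which melanocytes arise, and from epithelial-mesenchymal transition.

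Signals are linear, 1 value per probe set and array. Differences are on a log2(signal + 47.5) scale, siRNA minus scrambled, and understate the change of dim probe sets. They were tested with limma over the 27306 probe sets whose mean log2 value lay above the median, 7.74, with Benjamini-Hochberg adjustment over all of them and a threshold of 0.05. Errors are standard errors (SE) of that fit, in which the lone scrambled array is assumed to vary like the 2 siRNA arrays. In all, 571 probe sets passed, 324 higher and 247 lower. With arrays centred on their medians, which moves every difference down by 0.17, the split was 597 higher and 937 lower. Control probe sets for the bacterial gene trp read up to 97.2, and a signal at or below that level is called dim here. The median signal was 174.3 and 199.5 on the siRNA arrays and 160.6 on the scrambled array. The probe sets of the targeted gene disagreed. The brightest MELTF probe set read 18968 and 18974 on the siRNA arrays against 32608 on the scrambled array (log2 difference -0.78 ± 0.17, SE; limma adjusted p = 0.0699). It passed with arrays centred on their medians (-0.95, adjusted p = 0.00493) or on the medians of the probe sets past the filter (adjusted p = 0.0397). Of its other probe sets 2 were higher on both siRNA arrays and 1 was lower on both, and none passed the threshold.

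TCF4 was the 1 member gene that passed the threshold, and it was higher in the siRNA cells, with a call that was lost without the filter on low values (limma adjusted p = 0.157). The other 8 genes had no probe set past it. In number, 20 of the 38 probe sets passed the filter on low values, and 1 of these 20 was called, against 2.09% of all tested probe sets. The called probe set and 4 others passed the filter only through their siRNA signals, so these counts are given as a description. An unadjusted p under 0.05 was reached by 5 of the 20, against 20.2% of all tested, a share of about the same size. Both siRNA arrays lay above the scrambled array for 20 of the 38 probe sets (42.3% of all probe sets) and below it for 8 (29.9% of all). On both siRNA arrays, 5 of 38 were at least 2-fold higher, of which 4 belong to TCF4, against 3.68% of all probe sets. By the same measure 0 of 38 were lower, against 2.19%. Probe sets of 1 gene share a transcript and are not independent.

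**Figure D1:**
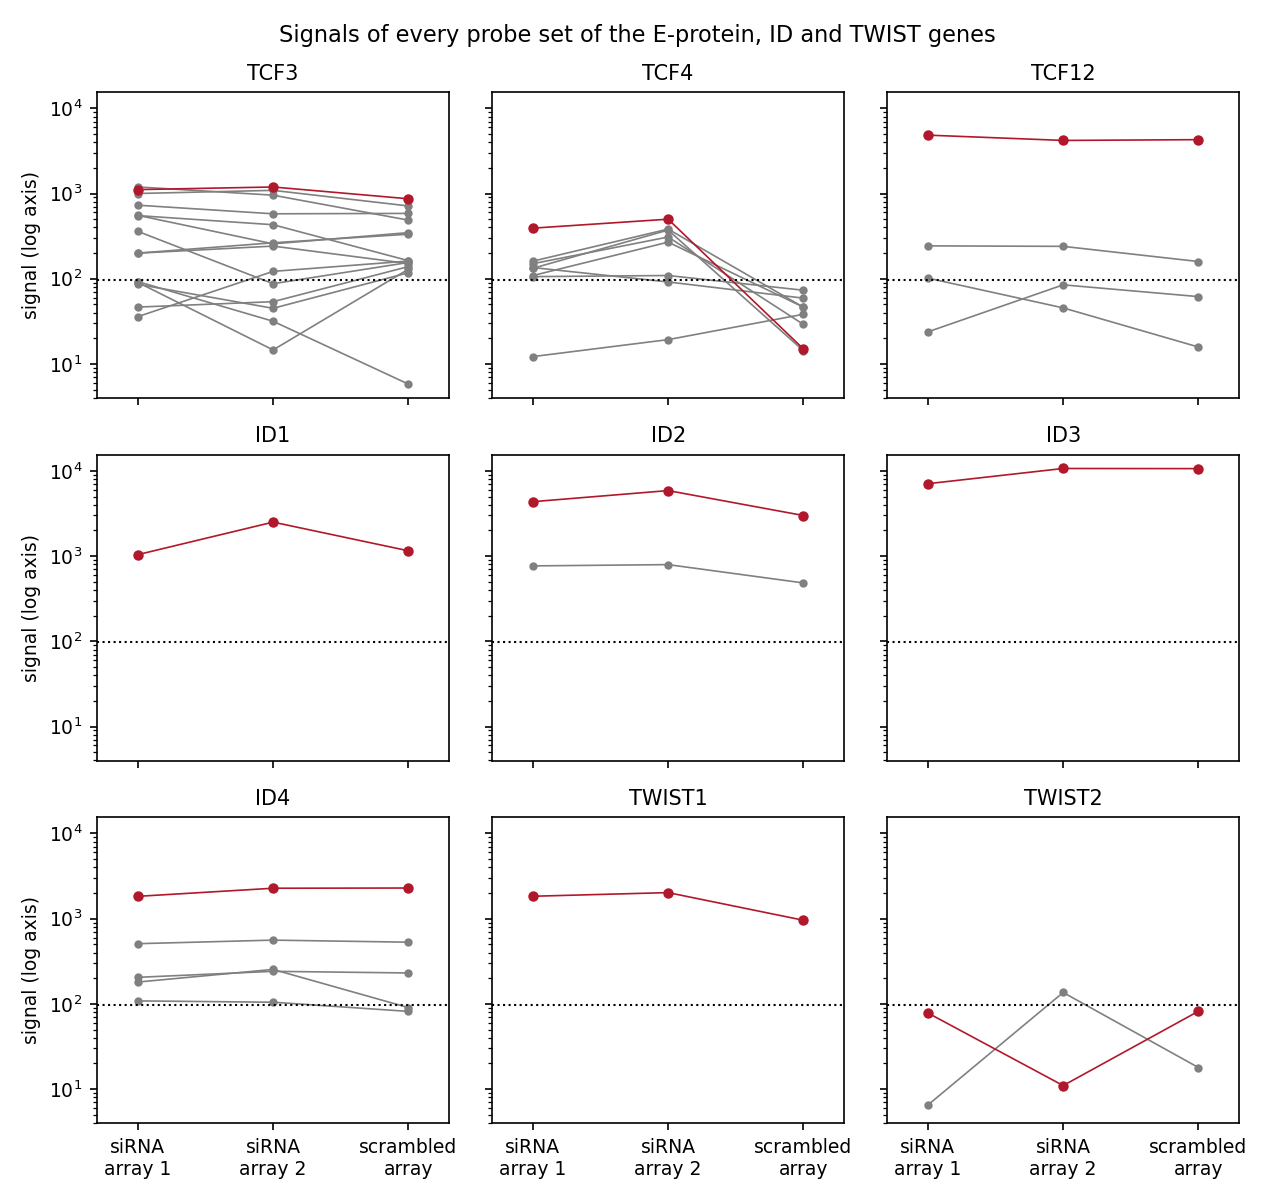
Signal (log axis) of each of the 38 probe sets on siRNA array 1, siRNA array 2 and the scrambled array, 1 panel per gene; red marks the brightest probe set of the gene and the dotted line the highest trp control signal, 97.2. In the TCF4 panel 7 of 8 lines are higher on both siRNA arrays and all 8 scrambled signals lie under the dotted line.

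TCF4 encodes the E-protein also known as E2-2, needed in nervous system development and in plasmacytoid dendritic cells. Its brightest probe set, 212386_at, read 392.3 and 499.8 on the siRNA arrays against 15 on the scrambled array. The scrambled signal was dim and both siRNA signals were well apart from it. Taking the scrambled signal at the level of the trp controls, the siRNA arrays were at least 4.56-fold higher (limma adjusted p = 0.0284). The fitted log2 difference was 2.97 ± 0.43 (SE), with 2.81 on siRNA array 1 and 3.13 on siRNA array 2, and its size depends on the pseudocount. This probe set passed the filter only through its siRNA signals: its mean log2 value was 7.95, whereas its scrambled value was 5.97, so a gene of this kind could be tested only because it was higher. Without a trend in the spread the adjusted p was 0.124, which is not past the threshold either. In bulk RNA a change in the share of TCF4-expressing cells and a change in TCF4 RNA per cell cannot be told apart.

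The other 7 TCF4 probe sets were left out by the filter and have values but no test. 4 of them were brighter on siRNA array 2 than on siRNA array 1 by a wide margin. Probe set 203753_at read 160.8 and 382.4 on the siRNA arrays against 46.3 on the scrambled array, at least 2.55-fold higher. Probe set 222146_s_at read 132.6 and 372.6 against 14.3, at least 2.29-fold higher. Probe set 213891_s_at read 150.1 and 308.8 against 29.1, at least 2.21-fold higher. In all 3 the siRNA signals stood above the trp level and the scrambled signal below it. Probe set 212387_at followed with 108.9 and 269 against 46.4, at least 1.76-fold higher. Probe sets 212385_at (135.3 and 91.7 against 59.2) and 212382_at (105.9 and 109.1 against 73.3) lay between 59.2 and 135.3 on every array, around the trp level. The last, 228837_at, was dim throughout, at 12.2 and 19.3 on the siRNA arrays against 38.3 on the scrambled array, and was the only TCF4 probe set below the scrambled array on both siRNA arrays. The mean log2 difference over all 8 was 1.29, and that mean value lies below the filter.

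**Figure D2:**
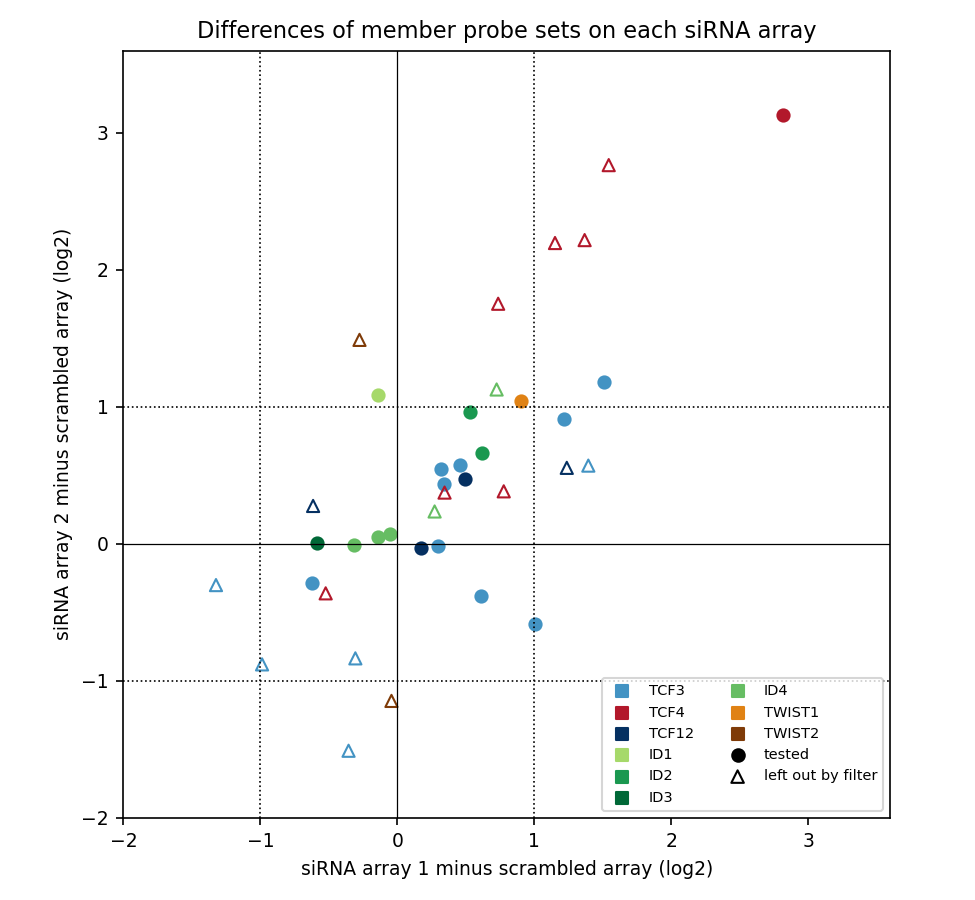
Log2 difference from the scrambled array on siRNA array 1 (horizontal axis) and siRNA array 2 (vertical axis) for the 38 member probe sets; filled circles were tested, open triangles were left out by the filter on low values, and dotted lines mark 2-fold. The tested TCF4 probe set stands apart at 2.81 and 3.13. Both axes share the scrambled array.

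RefSeq gives TCF4 10 start sites (GRCh38.p14), a known feature of this gene with its many first exons, and the array does not tell which start its RNA came from. In windows from 250 bases before to 50 bases after each start, letters of the general E-box CANNTG were searched. The pattern is its own reverse complement, so a match counts for both strands. It was found in 7 of the 10 TCF4 windows, against 68.7% of 35116 windows in the RefSeq table. The E-box CACGTG, also its own reverse complement and contained in CANNTG, was found in 1 TCF4 window, against 7.26% of all. That window is shown because TCF4 is the member with a called difference, with the match in capitals; it lies at chr18:55588568-55588867 on the minus strand.
TCF4 window: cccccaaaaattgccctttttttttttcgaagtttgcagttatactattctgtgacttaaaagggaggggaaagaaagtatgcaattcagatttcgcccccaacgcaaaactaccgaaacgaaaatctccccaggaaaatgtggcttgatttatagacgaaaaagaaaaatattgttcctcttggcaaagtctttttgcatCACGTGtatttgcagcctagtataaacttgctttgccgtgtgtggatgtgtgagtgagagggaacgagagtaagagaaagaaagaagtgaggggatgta
The match begins at base -49 relative to the start site, and it says nothing about whether a factor binds there.

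TCF3 encodes E12 and E47, the splice forms for which the E-protein family is named. With 14 probe sets it was the most densely covered member, and 9 of them passed the filter. None of the 9 was called by limma, and 2 had an unadjusted p under 0.05. The brightest, 213811_x_at, read 1112 and 1193 on the siRNA arrays against 867.4 on the scrambled array (log2 difference 0.39 ± 0.27, SE; limma adjusted p = 0.470). Both siRNA values were above the scrambled value by little more than the SE. The pair with the lowest p were 209152_s_at and 210776_x_at. Probe set 209152_s_at read 550.8 and 430.4 against 163 (log2 difference 1.34 ± 0.37, SE; limma adjusted p = 0.105). It was the 1 TCF3 probe set at least 2-fold higher on both siRNA arrays. Probe set 210776_x_at read 1195 and 956.3 against 487.1 (log2 difference 1.06 ± 0.30, SE; limma adjusted p = 0.110).

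TCF3 probe sets did not move as a body. 6 lay above the scrambled array on both siRNA arrays, 5 lay below it on both, and the differences ran from -0.93 to 1.34 with a median of 0.18. The brightest probe set among those below on both arrays, 216647_at, read 199.8 and 264.3 on the siRNA arrays against 333.1 on the scrambled array (log2 difference -0.45 ± 0.40, SE; limma adjusted p = 0.580). The other 4 below the scrambled array, 213731_s_at, 216645_at, 213809_x_at and 213732_at, read 117.6 to 161.3 on the scrambled array and were dim on at least 1 siRNA array. In 3 tested probe sets the siRNA arrays fell on either side of the scrambled array. An example is 215260_s_at, with 359.8 and 87.4 on siRNA arrays 1 and 2 and 155.2 on the scrambled array. Of the 14, 6 have the suffix x_at, with which Affymetrix marks probe sets that can match other transcripts. The differences of 209153_s_at and 202648_at (0.14 and 0.12) turned to -0.027 and -0.054 with arrays centred. The assignment of 202648_at to TCF3 is that of the platform annotation and was not checked against a TCF3 transcript.

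TCF12 encodes the E-protein HEB, best known from T cell development. Its brightest probe set, 208986_at, read 4843 and 4198 on the siRNA arrays against 4287 on the scrambled array, so that the scrambled value lay between them. The log2 difference was 0.072 ± 0.23 (SE; limma adjusted p = 0.900), or -0.097 with arrays centred and 0.12 with quantile normalization. A dimmer one, 238041_at, read 243.1 and 239.9 against 159.2 (log2 difference 0.48 ± 0.41, SE; limma adjusted p = 0.567). The other 2 TCF12 probe sets were left out by the filter: 215611_at read 101.7 and 45.5 against 15.8, and 233678_at read 23.8 and 84.8 against 61.7.

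Of the ID genes, ID2 was higher on both siRNA arrays without passing the threshold. ID1 was higher on 1 of them and ID3 was lower on 1 of them. ID4 lay close to the scrambled array in most probe sets. ID2 is the member known for binding to the retinoblastoma protein as well as to E-proteins. Its brightest probe set, 201565_s_at, read 4350 and 5872 on the siRNA arrays against 2994 on the scrambled array (log2 difference 0.75 ± 0.26, SE; unadjusted p = 0.0217 and adjusted p = 0.168, limma). The second, 201566_x_at, read 767.4 and 794.2 against 484.2 (log2 difference 0.64 ± 0.29, SE; limma adjusted p = 0.279). In both the scrambled value was the lowest of the 3. The probe set annotated to both ID2 and ID2B, 213931_at, read 261.8 and 346.9 against 120.1 (log2 difference 1.06 ± 0.42, SE; limma adjusted p = 0.219), and which of the genes gave its signal is not known. Of all tested genes, 1498 of 12386 had a difference at least as high as that of ID2.

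ID1 is a classic BMP target. Its 1 probe set, 208937_s_at, read 1040 and 2505 on siRNA arrays 1 and 2, against 1154 on the scrambled array. The siRNA arrays thus disagreed, one slightly below the scrambled array and the other more than 2-fold above it. The log2 difference of 0.47 ± 0.47 (SE; limma adjusted p = 0.629) was made of -0.14 for the first siRNA array and 1.09 for the second.

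ID3, also a BMP target, was measured by 1 probe set, 207826_s_at, with 7072 and 10669 on the siRNA arrays against 10627 on the scrambled array. siRNA array 2 matched the scrambled array and siRNA array 1 was lower (log2 difference -0.29 ± 0.27, SE; limma adjusted p = 0.607). ID4, which is expressed in neural lineages, had 5 probe sets, of which 3 were tested. The brightest, 209291_at, read 1828 and 2275 against 2289 (log2 difference -0.16 ± 0.26, SE; limma adjusted p = 0.784). The other tested ones, 209293_x_at and 226933_s_at, differed by 0.010 ± 0.31 and -0.044 ± 0.41 (SE), the first turning to -0.16 with arrays centred. Of the remaining pair, 209292_at read 180.4 and 253.7 against 90.4, at least 2.20-fold higher, so that ID4 probe sets did not give 1 picture. 229386_at read 108.4 and 104.6 against 81.6, near the trp level.

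ID2 and ID4 were the members whose start windows held the E-box CAGCTG, its own reverse complement and a sequence that E-proteins bind, and they are shown for that reason with the match in capitals. Of all windows 17.9% held it, and the E-box CACCTG (20.6% of all, either strand) was in none of the 21 windows of the members. The windows lie at chr2:8681806-8682105 for ID2 and chr6:19837120-19837419 for ID4, both on the plus strand of GRCh38.p14.
ID2 window: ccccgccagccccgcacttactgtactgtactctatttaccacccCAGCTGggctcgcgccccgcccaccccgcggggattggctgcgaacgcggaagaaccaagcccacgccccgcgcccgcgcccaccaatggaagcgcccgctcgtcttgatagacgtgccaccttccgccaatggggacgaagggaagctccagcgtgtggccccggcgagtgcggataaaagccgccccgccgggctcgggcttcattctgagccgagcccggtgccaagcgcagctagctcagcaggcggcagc
ID4 window: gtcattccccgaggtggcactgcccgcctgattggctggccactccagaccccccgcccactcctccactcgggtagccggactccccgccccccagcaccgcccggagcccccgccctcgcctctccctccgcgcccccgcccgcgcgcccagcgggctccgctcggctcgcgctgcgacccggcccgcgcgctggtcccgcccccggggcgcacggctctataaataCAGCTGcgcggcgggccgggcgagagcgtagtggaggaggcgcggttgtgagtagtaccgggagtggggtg
The ID2 match begins at base -205 and the ID4 match at base -21 relative to the start. Beside it, the brightest ID2 probe set was higher on both siRNA arrays. That of ID4 differed by -0.32 on siRNA array 1 and by -0.0082 on siRNA array 2. The mean over all ID4 probe sets was 0.20, so ID4 had no clear direction. Neither gene passed the threshold.

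TWIST1, the mesenchymal and neural crest factor, was measured by 1 probe set, 213943_at. It read 1832 and 2022 on the siRNA arrays against 958 on the scrambled array. The siRNA arrays were close to each other and about the same distance above the scrambled array, which was the lowest of the 3. The log2 difference was 0.97 ± 0.26 (SE), or 1.96-fold, with 0.90 on siRNA array 1 and 1.04 on siRNA array 2 (unadjusted p = 0.00624 and adjusted p = 0.0989, limma), short of the threshold. With arrays centred the difference was 0.80 and with quantile normalization 0.85. Of the 12386 tested genes, 836 had a difference at least as high, and 183 of those were called. TWIST2, a close relative also known as Dermo-1, was dim. Its probe set 229404_at read 78.2 and 11 against 82, and 1554163_at read 6.5 and 136.1 against 17.9. Both were left out by the filter, and the 2 siRNA arrays did not order alike in the second.

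**Figure D3:**
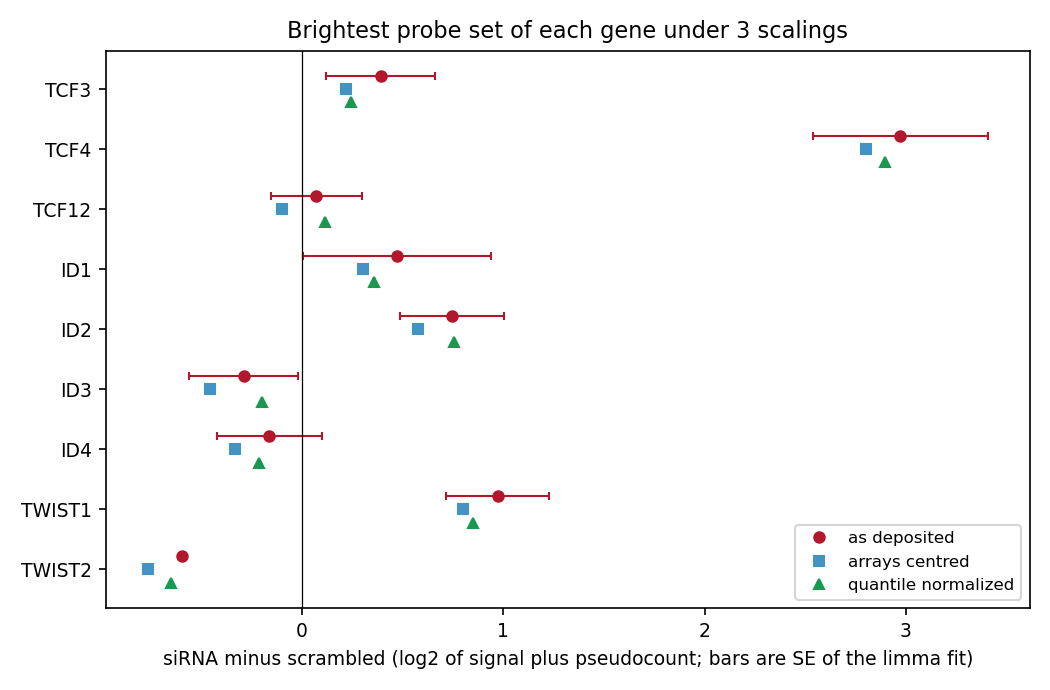
Log2 difference, siRNA minus scrambled, of the brightest probe set of each gene as deposited (red circles, with the SE of the limma fit where tested), with arrays centred on their medians (blue squares) and with quantile normalization (green triangles). TCF12 is the gene here whose sign changes between scalings, from 0.072 as deposited to -0.097 centred.

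Genes most like TCF4 in their pair of differences were sought among all tested genes by Euclidean distance between (siRNA array 1 minus scrambled, siRNA array 2 minus scrambled), over the 3 arrays. The 5 nearest were FAM163A, CCL18, TMOD2, CPNE2 and RUBCNL. The choice depends on the pseudocount: of these 5, 2 were among the nearest with a pseudocount of 16 and 0 with 200. CCL18, a chemokine gene, read 886.3 and 1079 on the siRNA arrays against 77.9 on the scrambled array, and TMOD2, a neuronal tropomodulin gene, read 472.1 and 666.8 against 31.5. The copine gene CPNE2 read 557.7 and 596.1 against 26.9. Like TCF4, these 3 were dim on the scrambled array, as was RUBCNL at 62.8, and FAM163A read 97.5 there. The scrambled log2 values of the 5 ran from 6.22 to 7.18, below the filter. They too could be tested only through their siRNA signals. For TWIST1 the 5 nearest were OSBPL1A, NRN1, KBTBD7, ZNF48 and DSG2, among many genes with differences of this size, and 2 and 1 of them remained with these pseudocounts. The desmosomal cadherin gene DSG2 read 5843 and 6330 against 3064.

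Genes of BMP and SMAD signalling, which acts upstream of ID1 to ID3, gave 0 of 20 tested genes past the threshold by limma. Over all genes 1.5% were called higher and 1.14% lower. An unadjusted p under 0.05 was reached by 5 of the 20, against 22.9% of all genes. These 20 include ID1, ID2 and ID3. 15 lay above 0 and 5 below, with a median difference of 0.36, against 0.097 over all genes. The median over all genes is itself above 0, so most genes lay above 0 on this scale. The split is therefore given as a description. SMAD7, the inhibitory SMAD that the pathway itself induces, read 386.3 and 793 on the siRNA arrays against 133.6 on the scrambled array (log2 difference 1.74 ± 0.46, SE; limma adjusted p = 0.100). The ligand gene BMP7 read 745.7 and 1061 against 306.9 (log2 difference 1.40 ± 0.33, SE; limma adjusted p = 0.0790). In both the scrambled array was lowest and siRNA array 2 highest, which is also the order of the median signals of the arrays. ID2 had this order, whereas ID1 and ID3 did not. SMAD7 passed the filter only through its siRNA signals, since its scrambled log2 value was 7.50. With arrays centred on their medians the adjusted p was 0.0293 for SMAD7 and 0.0453 for BMP7 (limma), but in no other setting was either past the threshold, with 0.134 and 0.128 for quantile normalization and 0.268 and 0.221 without the filter. BMP7 probe sets disagreed, since 211260_at read 176.4 and 196.8 against 419.5 (log2 difference -0.998 ± 0.39, SE; limma adjusted p = 0.218).

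Few of the tissue-restricted partners of E-proteins could be tested. Of 25 genes on the array 10 were dim on all 3 arrays, MYOD1, MYOG and HAND2 among them, and 5 passed the filter. Among the 5, limma called 0, against 1.5% of all genes called higher and 1.14% called lower, and 2 were under 0.05 before adjustment, against 22.9% of all genes. Their median was 0.44, against 0.097 over all genes, and is the value of HAND1. HAND1 and LYL1 passed the filter only through their siRNA signals, since their scrambled log2 values were 7.70 and 7.11. The median is therefore given as a description. Musculin, MSC, a repressor that pairs with E-proteins, read 2718 and 1625 on the siRNA arrays against 5488 on the scrambled array (log2 difference -1.36 ± 0.33, SE; limma adjusted p = 0.0798, 0.0186 with arrays centred and 0.110 with quantile normalization). The scrambled array was the highest by a factor above 2. The blood cell factor gene LYL1 read 255.2 and 234.1 against 90.6, at least 2.51-fold higher. Its fitted log2 difference was 1.08 ± 0.44 (SE; limma adjusted p = 0.228).

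HES, HEY and BHLHE repressors are a separate branch of the superfamily that answers to Notch and other signals. Limma called 0 of their 7 tested genes, against 1.5% of all genes called higher and 1.14% called lower. Before adjustment 2 of the 7 were under 0.05, a share near the 22.9% of all genes. The median of the 7 was -0.30, against 0.097 over all genes. HEY2 read 712.3 and 739.5 on the siRNA arrays against 321.9 on the scrambled array (log2 difference 1.07 ± 0.31, SE; limma adjusted p = 0.117). HES4 read 225.9 and 86.8 against 474.3, at least 3.20-fold lower. Its fitted log2 difference was -1.45 ± 0.52 (SE; limma adjusted p = 0.184). HES4 passed the filter only through its scrambled signal, since its mean siRNA log2 value was 7.58. HEY2 probe sets disagreed, since 219743_at read 139.2 and 176.4 against 260.5 (log2 difference -0.59, limma adjusted p = 0.504). E-protein cofactors had 0 of 11 past the limma threshold, against the same 1.5% and 1.14%, and a median of 0.12. An unadjusted p under 0.05 was reached by 1, against the same 22.9%. That 1 was KAT2B, the acetyltransferase PCAF, with 3236 and 4236 against 1675 (log2 difference 1.12 ± 0.26, SE; limma adjusted p = 0.0767). LDB1, an adaptor of LIM proteins, read 1024 and 1221 against 709.2 (log2 difference 0.62 ± 0.28, SE; limma adjusted p = 0.276).

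Genes known as E-box targets or as cell cycle effectors of E-proteins and IDs gave 2 of 11 past the threshold, both lower, against 1.14% of all genes called lower. The lists were chosen with earlier results of these data known, so this count is given as a description only. The median was -0.18, against 0.097 over all genes, and 8 of the 11 lay below 0. CDKN2B, the cyclin-dependent kinase inhibitor p15, read 1184 and 902 on the siRNA arrays against 3966 on the scrambled array and fell by 1.89 on the log2 scale (SE 0.28; limma adjusted p = 0.0286). CDKN2A, the locus of the inhibitor p16, read 8603 and 7225 against 16863 and fell by 1.09 in that brightest probe set (SE 0.21; limma adjusted p = 0.0496). Both siRNA arrays were below the scrambled array for each gene, also in the second CDKN2A probe set (2742 and 2009 against 5463; limma adjusted p = 0.0705). The CDKN2A call sat at the edge of the threshold and was lost with quantile normalization (adjusted p = 0.0676). Without the filter limma called neither gene (adjusted p = 0.119 for CDKN2B and 0.168 for CDKN2A), nor without the trend (0.128 and 0.193). The transition factor gene SNAI2 read 17290 and 22741 against 35227 (log2 difference -0.83 ± 0.21, SE; limma adjusted p = 0.0928, 0.00339 with arrays centred and 0.0994 with quantile normalization). N-cadherin, CDH2, read 2020 and 2177 against 1217 (log2 difference 0.76 ± 0.25, SE; limma adjusted p = 0.153). CDH1, SNAI1 and POSTN were dim on all 3 arrays.

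**Figure D4:**
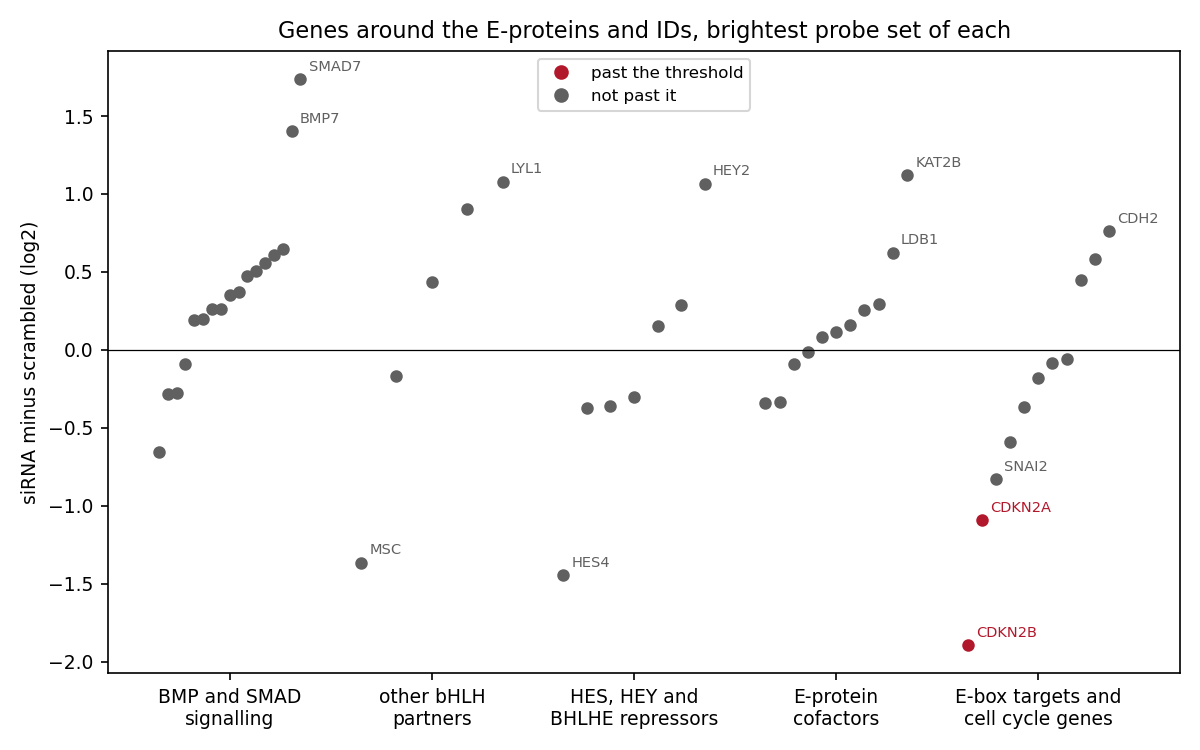
Log2 difference, siRNA minus scrambled, of each tested gene in the 5 lists around the E-proteins and IDs, members left out, 1 point per gene by its brightest probe set; red marks genes past the limma threshold. CDKN2B and CDKN2A, both lower, are the 2 red points.

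Markers of the cell line and of other cell types were read beside these values. The melanocyte markers MITF, SOX10, PMEL, MLANA, TYR and S100B all passed the filter. By their brightest probe sets limma called 0 of the 6, against 1.5% of all genes called higher and 1.14% called lower. Before adjustment 2 were under 0.05, against 22.9% of all genes. These 2 lay on opposite sides of the scrambled array. TYR, the tyrosinase gene, read 35193 and 37555 on the siRNA arrays against 19988 on the scrambled array (limma adjusted p = 0.0529), and its second probe set, 1555505_a_at, rose by 1.11 on the log2 scale (limma adjusted p = 0.0383). TYR probe sets disagreed, since 1555504_at read 2539 and 1979 against 2419 (log2 difference -0.11, limma adjusted p = 0.868). MITF, the melanocyte master regulator, read 42992 and 34223 against 52684 (limma adjusted p = 0.236). The summed signal of the 6 was 237039 and 253261 on the siRNA arrays against 236324 on the scrambled array. Fibroblasts also express TCF4 and TWIST1. The 7 fibroblast markers summed to 5883 and 6133 against 2013. Of this the brightest probe set of LUM, a proteoglycan gene, gave 4850 and 4841 against 598.6. It rose (limma adjusted p = 0.00719, or 0.0585 without the filter and 0.120 without the trend). The other LUM probe set, 229554_at, was left out by the filter and read 171.2 and 138.9 against 139.8. Of the other fibroblast markers COL3A1 and PDGFRB were dim on all 3 arrays, and COL1A1 read 487.9 and 565.1 against 671.9. The 5 leukocyte markers summed to 1101 and 1190 against 1791, with PTPRC dim on all arrays, LCP1 at 477.8 and 384.7 against 1130, and CD79A at 362.6 and 498.4 against 278.8. The 5 epithelial markers summed to 2894 and 2760 against 1975, with EPCAM and CDH1 dim on all arrays. Most of this was KRT18, at 2483 and 2149 against 1308, whereas KRT8 read 207.6 and 297.1 against 483.2. The 4 endothelial markers summed to 409.2 and 703.5 against 489.1, with CDH5 dim on all arrays. The part of other cell types in the TCF4 and TWIST1 values was not tested.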

How the data were processed

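Total RNA of SK-Mel-28 cells was hybridised to 3 arrays, 2 siRNA and 1 scrambled. The deposited values are probe set signal intensities on a linear scale from GCOS 1.3, per the submitters' processing notes. Their mean after trimming 2% at each end was close to 1000 on each array (1000.12, 1000.13 and 1000.14), the mark of scaling before deposit. Further settings are not stated in these sources, and no genome build is. The number of arrays limits the precision.

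Of 54675 probe sets, 62 controls were left out. The annotation named 1 gene for 41091 of the rest, several for 1801 and none for 11721. The pseudocount of 47.5 is the 25th percentile of all signals. The upper 50% of probe sets by mean log2 value were tested with limma 3.58.1 in R 4.3.3 (eBayes with a trend), with 1 residual degree of freedom and 6.36 from moderation. A gene is represented by its brightest probe set. Lower bounds raise each signal to at least 97.2, the highest trp control signal, and use the geometric mean of the siRNA arrays. The fit was tested on simulated data. Named genes were the members, MELTF, the genes of 5 partner lists past the threshold plus the 2 with the largest smaller difference among those with 1 sign on both arrays, and the 5 nearest to TCF4 and TWIST1. Of the lists, markers included, further genes are named where they were dim or bear on a result. The members and lists were chosen with earlier results of these data known. Start windows came from the RefSeq tables (GRCh38.p14), which matched 8 of the 9 genes. There were 0 value columns of other samples.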

Additional observations from a re-analysis of the deposited data

How the results depend on the processing

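No paired analysis was possible because there was only 1 scrambled array and the labels pair it with neither siRNA array. Against 571 probe sets called, limma called 1534 with arrays centred on their medians, 360 with quantile normalization, 1 without the filter, 9 with a 75th percentile filter and 1 without the trend. Centring on the probe sets past the filter, chosen after seeing the data, gave 722 (254 higher, 468 lower). The cause was not tested. Of member probe sets 1 was called, but 0 without the filter (unadjusted p = 0.00139 for TCF4), 0 with the 75th percentile filter, which leaves out TCF4, and 0 without the trend (unadjusted p = 0.00014). The TCF4 difference of 2.97 does not depend on the filter or the trend, and its adjusted p was 0.157 without the filter and 0.124 without the trend. Over 8 alternatives its adjusted p ran from 0.000792 to 0.157, and the difference was 3.89 with a pseudocount of 16 and 1.58 with 200. As the mean of all probe sets, TCF4 differed by 1.29, ID4 by 0.20 and TWIST2 by 0.0059, where the brightest probe sets of ID4 and TWIST2 gave -0.16 and -0.59. TCF12 differed by -0.097 with arrays centred and -0.092 centred on probe sets past the filter. Of partner genes 2 were called, against 7 with arrays centred, 1 with quantile normalization, 1 with a pseudocount of 200, and 0 without the filter, with the 75th percentile filter or without the trend. With each siRNA array left out, which leaves no test, TCF12 ranged from -0.030 to 0.17, ID1 from -0.14 to 1.09 and ID3 from -0.58 to 0.0057. Of 78 tested values of the 8 tested member genes under alternatives, 73 kept their direction and their side of the threshold. A further 3 changed sign and 2, both of TCF4, were no longer past it. Changes of the filter, the trend or the moderation leave the difference as it is, so there the direction could not change. Members other than TCF4 were not past the threshold to begin with and had no call to lose. The 73 are thus no measure of robustness.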
